A study of Mus musculus with 2 samples.

Results

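The Dlx homeobox genes of the E11.5 mouse embryo were followed across cell types and embryos by single-cell RNA-seq. The 6 members, Dlx1 to Dlx6, were taken by gene symbol from the 21937 genes counted. The study tracked transgene insertion with a piggyBac cassette in which EGFP, driven by the CAG promoter, was linked to a DNA barcode, and its E11.5 embryos were pooled by CellPlex sample tags into a single gene expression library. That library held 4 cell suspensions, which served as the replicates. F0_8 and F0_9 came from founder embryos, F1_1 from a first-generation embryo, and F1_mix from cells of 2 further F1 embryos, combined on purpose to imitate a mosaic. Every suspension carried the barcode-linked GFP transgene, so no embryo without it stood beside them, and founders can be mosaic for it. Each suspension was counted once, and F1_mix is not a single animal. In comparisons of classes of cells, p-values measure how evenly a difference within suspensions repeated across them. For founders against F1 they measure the spread between suspensions.

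Dlx proteins are homeodomain transcription factors related to Distal-less of the fly. In mammals the genes lie in convergent pairs, Dlx1 with Dlx2, Dlx3 with Dlx4 and Dlx5 with Dlx6, and the members of a pair share enhancers. In the ventral forebrain Dlx1, Dlx2, Dlx5 and Dlx6 act in the making and migration of GABAergic neurons, in the pharyngeal arches they are nested along the proximal to distal axis of the jaw, and in the limb bud and surface ectoderm Dlx5, Dlx6 and Dlx3 are the members best known.

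In the GRCm38.p6 annotation each pair was found on its own chromosome with its members facing each other. Dlx1 lay at chr2:71528113-71533981 on the plus strand and Dlx2 at chr2:71543408-71546754 on the minus strand, with 9426 bases between them. Dlx3 at chr11:95120117-95125296 on the plus strand and Dlx4 at chr11:95140447-95146294 on the minus strand were 15150 bases apart. Dlx6 at chr6:6863334-6867970 on the plus strand and Dlx5 at chr6:6877801-6882068 on the minus strand were 9830 bases apart. Antisense genes are known at these loci. The sources used do not state whether counting used strand, so whether antisense reads were kept out of the Dlx counts was not checked.

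The promoter of Dlx2 is shown because Dlx2 was the gene whose level followed that of its neighbour Dlx1 most closely over cell types. RefSeq promoters on GRCm38.p6 were matched for 2 of the 6 members, Dlx1 and Dlx2. The 250 bases upstream of the Dlx2 start, at chr2:71546755-71547004 on the minus strand, are written 5′ to 3′ with each CACGTG in capitals.
Dlx2: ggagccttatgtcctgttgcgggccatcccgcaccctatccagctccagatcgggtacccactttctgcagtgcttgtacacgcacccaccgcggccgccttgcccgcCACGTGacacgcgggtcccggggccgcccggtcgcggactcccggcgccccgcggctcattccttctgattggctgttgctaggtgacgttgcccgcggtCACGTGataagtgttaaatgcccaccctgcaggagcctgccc
Over windows of 300 bases, from 250 before to 50 after the start, and on both strands, the homeodomain core TAATTA was in neither promoter and in 5.29% of 32851 mouse promoters. The E-box letters CANNTG matched 3 times in the Dlx2 window, 0 times in that of Dlx1 and in 72.3% of all promoters. CACGTG, which is also a CANNTG match, was found 2 times for Dlx2, 0 times for Dlx1 and in 7.15% of all promoters. The Dlx1 window held 27 CpG and that of Dlx2 held 29, where the median promoter held 7. These are letters in a window and no measure of binding.

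The authors assigned 5678 cells to 16 cell types by clustering the same cells, so levels between types are a description. Gene UMIs (unique molecular identifiers, each standing for 1 captured RNA molecule) came to between 16052917 and 19160116 per suspension over 1310 to 1599 cells, with medians of 10880 to 13267 per cell, and no cell barcode was shared between suspensions. Of the types, 12 were sequenced deeply and 4 (Endodermal Progenitor, Foregut, Hepatocyte and Midgut, medians of 721.5 to 1674 UMIs) were not. Type names were read against marker lists, with none for liver, gut or cartilage. Hematoendothelial Progenitor/Endothelium held more macrophage marker (19.9 UMIs per 10000 gene UMIs) than endothelial (5.46), Hepatocyte held mesenchyme markers at 14.5 and Midgut neuron markers at 16.4. Others touch Dlx. The summed level of 4 neuron markers was higher in Neuroectoderm/Glia, at 73.3, than in CNS Neuron, at 55.7. The 3 neural crest markers (Sox10, Foxd3 and Erbb3) were highest in the type named Ependymal Cell, at 2.21, followed by Epithelial Cell, at 0.636, and Myoblast/Cardiomyocyte, at 0.534, and the 4 mesenchyme markers reached 10.4 in Myoblast/Cardiomyocyte beside 4.21 for its 4 muscle markers.

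The family gave 3642 UMIs in 680 of 5678 cells (11.98%), of which 336 cells held UMIs of at least 2 members. Dlx5 was detected in the most cells, with 1384 UMIs in 421 cells, followed by Dlx2 with 927 in 313 and Dlx1 with 827 in 276. Dlx6 had 339 UMIs in 194 cells, Dlx3 had 133 in 90, and Dlx4, at 32 UMIs in 26 cells, was close to the limit of detection. Levels are given below as UMIs per 10000 gene UMIs of a cell type in a suspension, and 4 values in a row always stand in the order F0_8, F0_9, F1_1, F1_mix.

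Dlx1 and Dlx2, the pair of the ventral forebrain and of the whole arch, had their highest mean in CNS Neuron. Dlx1 there stood at 0.477, 0.411, 0.0534 and 0.252 (0.298 ± 0.189, SD, n = 4). Dlx2 stood at 0.427, 0.278, 0.107 and 0.315 (0.282 ± 0.133, SD, n = 4). F1_1 was the lowest suspension for both genes, and in Neuronal Progenitor and Neuroectoderm/Glia as well. A UMI of Six3, a factor of the anterior forebrain, was found in 9.15%, 8.49%, 9.14% and 10.5% of the cells of these 3 neural types, where F1_1 was not the lowest. A UMI of Dlx1, Dlx2, Dlx5 or Dlx6 was found in 56, 45, 20 and 37 of these neural cells, beside 381, 391, 319 and 382 without. Whether F1_1 held fewer forebrain cells or less Dlx RNA per cell was not tested.

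The order of the types below CNS Neuron was loose. Dlx1 had means of 0.194 in Ependymal Cell, 0.191 in Neuronal Progenitor and 0.181 in Neuroectoderm/Glia, and the ranges of these neighbours overlapped. For Dlx1, 4 of the 11 other deep types had every suspension below the lowest CNS Neuron suspension, and for Dlx2 6 of 11 did. Dlx2 was also found in Epithelial Cell, at 0.100, 0.0873, 0.322 and 0.296, where both F1 suspensions exceeded both founders. In the mesenchymal types its level was lower, at 0.0639, 0.0576, 0.0645 and 0.0897 in Gut Mesenchyme/Amniotic Mesoderm, 0.0262 to 0.102 in Mesodermal Progenitor and 0 to 0.0345 in Chondrocyte.

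Dlx3, a factor of surface ectoderm and its appendages, was highest in the epithelium, although 38 of its UMIs lay there beside 28 in Mesodermal Progenitor and 32 in Myoblast/Cardiomyocyte. Its level in Epithelial Cell was 0.261, 0.157, 0.144 and 0.0494 (0.153 ± 0.0866, SD, n = 4). In Mesodermal Progenitor, next in order, it was 0.0285 ± 0.0163, and all 4 suspensions there lay below the lowest epithelial suspension, as they did in 10 of the 11 other deep types. No Dlx3 UMI was found in 502 Neuroectoderm/Glia cells, which allows a level of up to 0.00504. Dlx4, its partner, gave 6 UMIs in Epithelial Cell and 13 in Mesodermal Progenitor, and none in the 4 types of neural name. Its order over types was not readable at this depth, since no type lay wholly below the epithelium.

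Dlx5 and Dlx6, the pair of the distal arch and limb, were spread over ectodermal, mesenchymal and neural types. Dlx5 had its highest mean in Epithelial Cell, at 0.301, 0.611, 0.222 and 0.379 (0.378 ± 0.168, SD, n = 4). It was nearly as high in Neuroectoderm/Glia, at 0.296, 0.376, 0.111 and 0.357, and in Mesodermal Progenitor, at 0.262, 0.295, 0.190 and 0.270, and these ranges overlapped. In Myoblast/Cardiomyocyte the founders, at 0.100 and 0.156, lay below F1_1 at 0.396 and F1_mix at 0.356. Dlx6 followed the same types at a lower count, with 0.0819 ± 0.00407 in Epithelial Cell, 0.0737 ± 0.0140 in Mesodermal Progenitor and 0.0637 ± 0.0379 in Gut Mesenchyme/Amniotic Mesoderm (SD, n = 4 each). Chondrocyte was low for both, at 0.0128 to 0.104 for Dlx5 and 0 to 0.0230 for Dlx6.

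The type named Ependymal Cell separated the pairs. Dlx1 was found in 15 of its 137 cells (10.9%, exact 95% interval 6.26 to 17.4) and Dlx2 in 17 (12.4%, 7.40 to 19.1). Dlx5 was found in 2 of the 137 (1.46%, 0.177 to 5.17) and Dlx6 in 0, which allows a level of up to 0.0164. Across the suspensions the Dlx5 level there was 0.0611, 0.0236, 0 and 0, so F1_1 and F1_mix gave none. This was the type with the highest level of neural crest markers, at 2.21. It also ranked 2 among all types for the 4 neural progenitor markers, at 9.62, and for the 4 epithelial markers, at 1.60.

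Free RNA was looked at in blood cells, which should lack Dlx, and in droplets of 100 to 300 UMIs, below cell calls. In 144 Erythroblast cells, with a median of 29076 UMIs, Dlx1, Dlx2 and Dlx6 were each found in 0.694% of cells and Dlx3 and Dlx5 in 1.39% (exact 95% interval for the latter 0.169 to 4.93). Dlx5 was found in 20.5% of Epithelial Cell (14.4 to 27.9, median 16938 UMIs), in 15.99% of Myoblast/Cardiomyocyte (13.2 to 19.1, median 18369) and in 6.77% of CNS Neuron (4.78 to 9.25, median 10898.5). The Dlx5 share in the cells named Ependymal was within that of the Erythroblast cells, and the Dlx1 and Dlx2 shares were above it. The droplets held Dlx5 at 0.148, Dlx1 at 0.133, Dlx2 at 0.0810 and Dlx6 at 0.0483 UMIs per 10000 gene UMIs, so Dlx1 and Dlx2 were each higher in them than their mean in each of the 3 mesenchymal types. In droplets of 1 to 100 UMIs Dlx2 stood at 0.203 (95% counting interval 0.155 to 0.261), beside a mean of 0.201 in Epithelial Cell and 0.175 in Neuroectoderm/Glia, and Dlx1, Dlx5 and Dlx6 stood at 0.132, 0.155 and 0.0473. How much of a cell's UMIs comes from such RNA was not measured. Intervals cover counting error only.

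**Figure D1:**
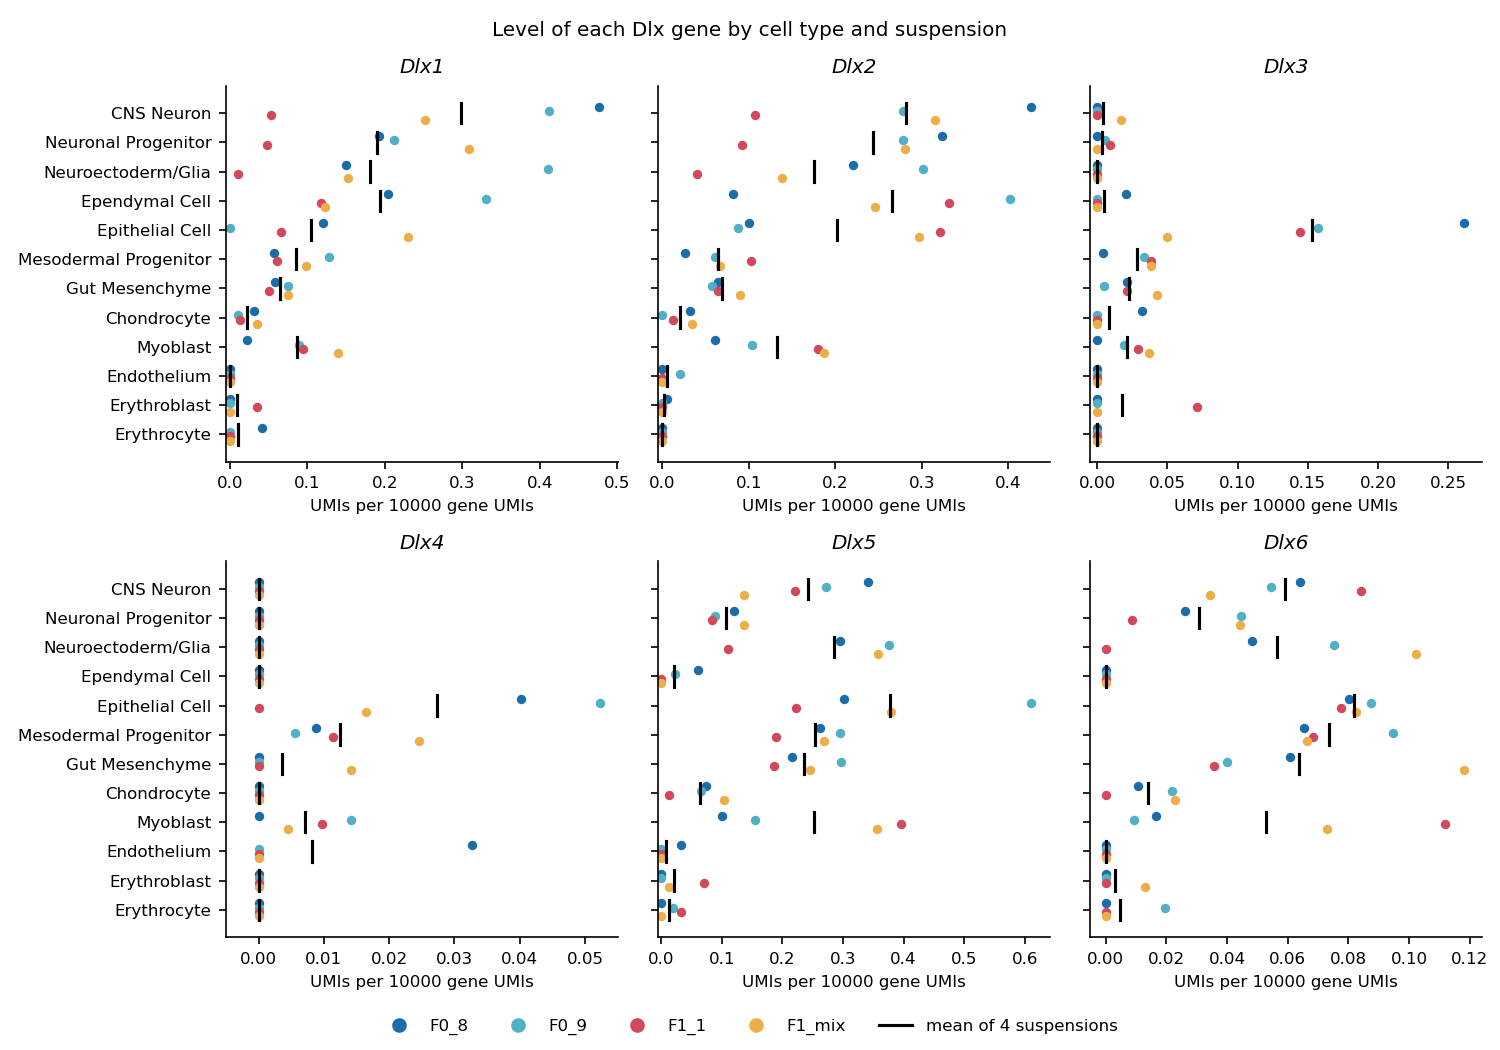
Level of each Dlx gene (UMIs per 10000 gene UMIs, one scale per gene) in the 12 deep cell types. Points are the 4 suspensions and black bars their means. Dlx1 and Dlx2 are led by CNS Neuron with F1_1 low, Dlx3 by Epithelial Cell, and Dlx5 is spread over epithelial, neural and mesenchymal types.

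Dlx1 and Dlx2 made up more of the family in the neural types, which were taken from whole embryos, than in mesenchyme. In the 3 neural types Dlx1 and Dlx2 gave 61.2% ± 11.51 of the Dlx UMIs (SD, n = 4, range 43.9 to 67.4), and in the 3 mesenchymal types (Chondrocyte, Gut Mesenchyme/Amniotic Mesoderm and Mesodermal Progenitor) 29.5% ± 3.62 (25.8 to 34.5). Dlx5 and Dlx6 gave 38.2% ± 10.9 and 63.6% ± 5.92. The ranges of the 2 tissues did not overlap, although the lowest neural value was that of F1_1, where Dlx5 and Dlx6 led with 54.5% of the Dlx UMIs. Among the neural types the share of Dlx1 and Dlx2 was 72.6% ± 9.66 in Neuronal Progenitor and 45.8% ± 13.3 in Neuroectoderm/Glia, the type with the highest neuron markers. Dlx1 and Dlx2 gave 93.7% ± 10.7 in Ependymal Cell and 41.4% ± 6.52 in Myoblast/Cardiomyocyte. Dlx3 and Dlx4 together gave 19.5% ± 11.2 of Dlx UMIs in Epithelial Cell, 6.91% ± 3.07 in mesenchyme and 0.606% ± 0.674 in the neural types.

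Members were next compared within single cells. The count of cells with UMIs of both genes of a pair was divided by the count that depth, type and suspension would give if the genes were independent, which is a description, since any mixture of regions within a type raises the ratio. In neural cells Dlx1 and Dlx2 were found together in 79 cells, 9.27 times the count so obtained (7.45 to 19.2 over suspensions), and 87.8% of the 90 Dlx1 cells had Dlx2. Dlx5 and Dlx6 were found together 9.86 times as often (8.46 to 19.0, 53 cells). In these neural cells Dlx2 with Dlx5, from different chromosomes, reached 8.47 (7.30 to 13.1, 82 cells). In mesenchyme the pairs differed more. Dlx1 with Dlx2 reached 8.25 (7.04 to 10.9, 44 cells) and Dlx5 with Dlx6 6.80 (5.65 to 7.60, 58 cells), while Dlx2 with Dlx5 reached 3.72 (3.06 to 4.14, 36 cells). Not all ratios between chromosomes were low there. As means over suspensions, Dlx1 with Dlx6 had 6.83 (6.16 to 7.27) and Dlx2 with Dlx6 5.93 (5.66 to 6.22). By the same measure Dlx5 with Dlx6 had 6.89 and Dlx1 with Dlx5 3.64 (3.06 to 4.68).

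In mesenchyme the rarer members were found mostly in cells that held a more common one. Of the 31 Dlx3 cells, 28 had Dlx5 (90.3%) and 19 had Dlx6 (61.3%), and of the 65 Dlx6 cells 58 had Dlx5 (89.2%). Of the 12 Dlx4 cells, 10 had Dlx5 and 7 had Dlx3. The reverse shares were lower, with Dlx3 in 17.6% and Dlx6 in 36.5% of the 159 Dlx5 cells, and Dlx1 in 23.3% of them. The shares of a pair in the 2 directions divide the same cells by different totals, so they differ wherever the members are found in unequal numbers of cells.

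**Figure D2:**
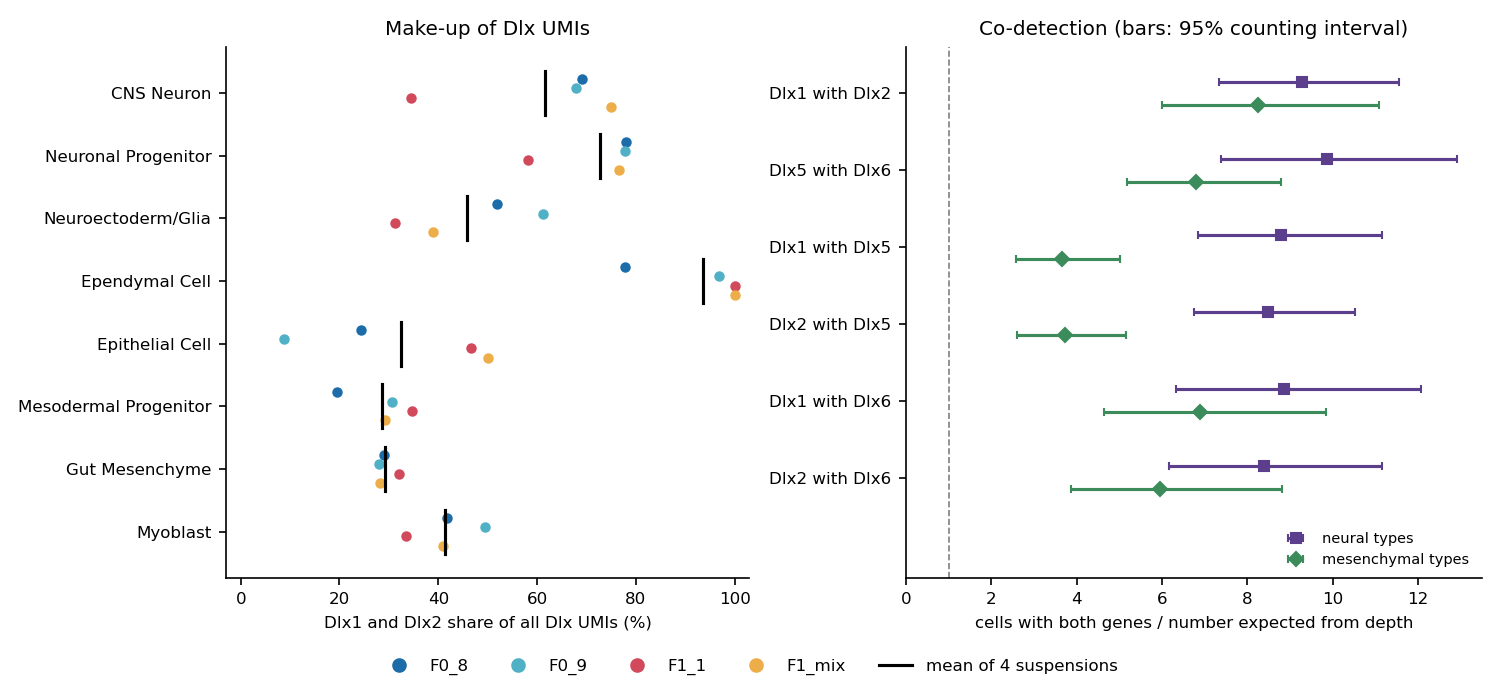
Left, share of Dlx1 and Dlx2 among all Dlx UMIs (%) by cell type, with 4 suspensions as points and the mean as a bar. Right, cells holding both genes divided by the number expected from depth, for neural (squares) and mesenchymal (diamonds) types, with 95% counting intervals and a dashed line at 1. Dlx1 with Dlx2 stays near 9.27 and 8.25, while Dlx2 with Dlx5 is 8.47 in neural and 3.72 in mesenchymal cells.

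Counts were then summed per class of cells and suspension, with classes set by genes other than Dlx. Facial and trunk mesenchyme were compared through the Hox genes, which are off in the first arch and frontonasal mesenchyme and on behind. The 327 mesenchymal cells with no UMI of any of 39 Hox genes were set against 1139 with at least 1. Dlx1, Dlx2 and Dlx6 were higher in the Hox-negative cells and Dlx5 and Dlx3 did not pass the test, where 5.36% of 13162 genes were called, 1.99% higher and 3.37% lower. Dlx1 stood at 0.144, 0.318, 0.0740 and 0.145 against 0.0277, 0.0273, 0.0428 and 0.0631 (log2 fold 2.0, SE 0.38, adjusted p = 0.0049, edgeR quasi-likelihood test with Benjamini-Hochberg adjustment). No Dlx1 values overlapped, and the call was kept in 10 of the 11 alternatives in mesenchyme that gave a value. The 705 genes called became 439 without F1_mix and 382 with no suspension block. Markers of other cell types moved with the division, 2 of 4 neuron markers being higher in the Hox-negative cells (Tubb3 1.06 and Stmn2 1.45) and 2 of 3 tested epithelial markers lower (Epcam -1.59 and Krt18 -1.24). Their part in the Dlx values was not tested.

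Dlx2 was higher with less margin, at 0.0890, 0.170, 0.0833 and 0.177 against 0.0336, 0.0199, 0.0750 and 0.0413 (1.61, SE 0.39, edgeR adjusted p = 0.023). Dlx6 stood at 0.144, 0.117, 0.0278 and 0.209 against 0.0296, 0.0422, 0.0536 and 0.0435 (1.55, SE 0.40, 0.036). F1_1 was the exception for Dlx6, with the lower value in its Hox-negative cells. The Dlx2 call was lost in 5 and the Dlx6 call in 7 of these 11 alternatives, among them leaving out F0_8, F0_9 or F1_mix. Dlx5 had 0.267, 0.297, 0.120 and 0.458 against 0.196, 0.243, 0.171 and 0.176 (0.52, SE 0.23, 0.302). The Hox-negative class was slightly shallower, with a mean of 14457 gene UMIs per cell against 15297.

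Arch and limb genes were read in the same division. Of 17 tested arch and facial genes 12 were higher in the Hox-negative cells, among them Alx1 (log2 fold 2.57), Tfap2b (3.12), Msx1 (2.08) and Barx1 (1.49), with median 1.49 over the list, and Hand2 (-1.68), of the distal arch, heart and limb, was lower. Of 14 tested limb genes 9 were lower, of which 5 are Hox genes that the division itself used, and Prrx1 was higher (0.34). In the Myoblast/Cardiomyocyte cells, divided the same way in a comparison chosen after seeing the data, Dlx1 (1.85, SE 0.41, edgeR adjusted p = 0.017) and Dlx5 (1.42, SE 0.23, 0.0015) were higher in 156 Hox-negative cells, where 3.27% of 12069 genes were called, 1.58% higher and 1.69% lower. Dlx2 (1.01, 0.302), Dlx6 (1.61, 0.056) and Dlx3 (-0.014, 0.9997) did not pass. Of 4 mesenchyme markers 3 were higher in the same cells, Prrx1 by 0.89, Twist1 by 1.01 and Col1a2 by 0.70, while Foxd3 of the neural crest (-1.62), Fabp7 of neural progenitors (-1.60) and Hba-a1 of red cells (-3.19, from 7.26 in the other cells of F0_9 beside 0.0774 to 0.0966 in those of the 3 other suspensions) were lower, and their part in the Dlx values was not tested. The Dlx1 call was lost without F1_mix (1.81, edgeR adjusted p = 0.234) and after thinning, the Dlx5 call without F1_1 (1.06, 0.090), and both with no block, and the 395 genes called became 185 without F1_mix and 224 without F1_1.

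Limb use was read within the Hox-positive mesenchyme, by dividing it into 435 cells with a UMI of Tbx4, Tbx5, Hoxa13 or Hoxd13, factors of limb identity and of the distal limb, and 704 without. Dlx1, Dlx2 and Dlx3 were lower in the limb class and Dlx5 and Dlx6 did not pass the test, where 7.56% of 12864 genes were called, 4.42% lower and 3.14% higher. Dlx1 was at 0, 0, 0.00874 and 0 in the limb class, which is 1 UMI in all, against 0.0484, 0.0488, 0.0579 and 0.0970, from 69 UMIs (log2 fold -4.91, SE 0.74, edgeR adjusted p = 0.0012). The level outside was 43.1 times that inside, with a counting interval of 7.48 to 1726.

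Dlx2 was at 0, 0, 0.0175 and 0.00621, from 3 UMIs, against 0.0588, 0.0355, 0.100 and 0.0602 (-3.59, SE 0.62, edgeR adjusted p = 0.0030), a ratio of 14.4 with an interval of 4.71 to 71.3. Dlx3 had 3 UMIs against 33 (-2.55, SE 0.71, 0.048), a ratio of 6.87 with an interval of 2.15 to 35, and its call was lost in 7 of 9 alternatives. The limb class thus held very little Dlx1 and Dlx2 in any of the 4 suspensions. Dlx5, in contrast, was at 0.208, 0.254, 0.157 and 0.0931 in the limb class and 0.187, 0.235, 0.178 and 0.221 outside it (-0.23, SE 0.21, 0.616), and its sign turned in 3 alternatives. Dlx6 had 14 UMIs against 58 (-1.34, SE 0.55, 0.189).

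The 972 genes called became 555 without F0_9 and 422 with no suspension block. The limb fold of Dlx1 lay between -6.86 and -4.17 over 10 alternatives, with the call kept in 9, and that of Dlx2 between -5.39 and -2.54 over 11, with the call kept in 9. With each cell thinned to 5000 UMIs no member was called, since Dlx1, Dlx3 and Dlx6 fell under the minimum count and Dlx2 had an edgeR adjusted p of 0.271. Among Gut Mesenchyme/Amniotic Mesoderm cells alone 0 members were called, with Dlx1 at -5.61 (edgeR adjusted p = 0.059) and Dlx2 at -5.39 (0.082), and among Mesodermal Progenitor cells alone Dlx6 was called as well (-3.21). Depth was alike in the classes, at 15396 and 15236 gene UMIs per cell. Of 17 tested arch genes 4 were lower in the limb class, such as Barx1 (-2.68) and Pou3f3 (-2.45), and 3 were higher, such as Hand2 (2.08). Of the markers of other cell types Dcx of neurons was higher (1.16) and Nes (-1.01) and Fabp7 (-2.20) of neural progenitors were lower, and their part in the Dlx values was not tested.

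Epithelial Cell, a type of 151 cells, was divided by Fgf8, Sp6 and Sp8, genes of the apical ectodermal ridge and facial ectoderm, into 52 positive and 99 other cells. Dlx2 was the member that passed, where 1.06% of 10060 genes were called and 0.567% were higher. It stood at 0.180, 0.204, 0.818 and 0.395 against 0.0362, 0.0265, 0.137 and 0.198, higher within each of the 4 suspensions although the classes overlapped (log2 fold 2.10, SE 0.45, edgeR adjusted p = 0.035). The call was lost in 5 of the 7 alternatives that gave an adjusted p, in each of the 4 that left out a suspension among them, while DESeq2 gave none and after thinning Dlx2 was under the minimum count. Dlx5, the best known member of the ridge, stood at 0.316, 1.17, 0.286 and 0.757 against 0.290, 0.319, 0.198 and 0 (1.62, SE 0.49, 0.199). Dlx1 (2.83, SE 0.81, 0.168), Dlx6 (0.64, SE 0.73, 0.902) and Dlx3 (0.20, SE 0.52, 0.969) did not pass. Dlx3 stood at 0.165 ± 0.101 in cells with these genes and 0.150 ± 0.0788 in the others (SD, n = 4). Of 12 tested genes of ridge and surface ectoderm 4 were higher, the 3 that define the class and Bmp4 (1.56), while Trp63 (-0.23), Wnt3 (-1.25), Krt5 (-1.27) and Epcam (-0.16) did not pass, and Six3, of the anterior head, was higher (2.16, edgeR adjusted p = 0.0033). The class is thus not shown to be ridge. The 107 genes called became 38 without F0_9 and 60 without F1_mix. Of 3 tested mesenchyme markers Pdgfra was higher with the ridge genes (3.70), and its part in the Dlx2 value was not tested.

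**Figure D3:**
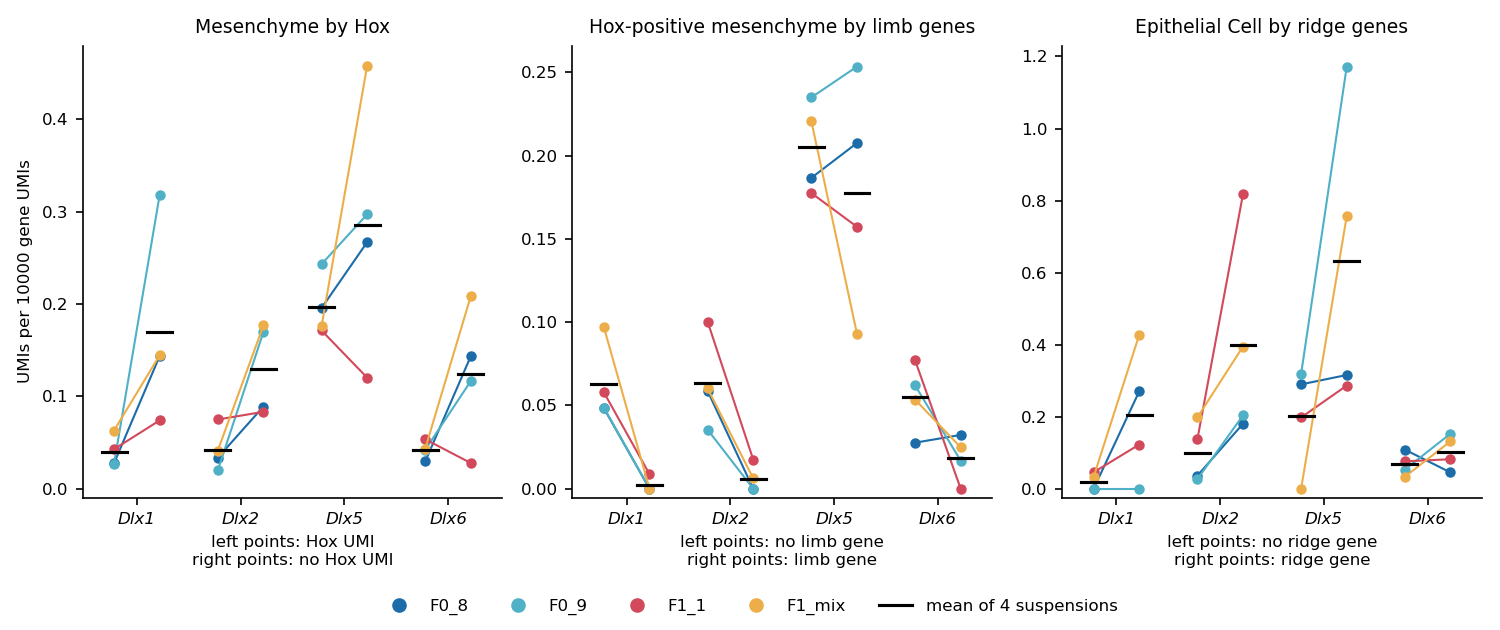
Level of Dlx1, Dlx2, Dlx5 and Dlx6 (UMIs per 10000 gene UMIs, one scale per panel) in the 2 classes of each comparison, lines joining the values of a suspension and black bars marking means. Dlx1 is higher without Hox in all 4 suspensions, and Dlx1 and Dlx2 are near 0 in mesenchyme with limb genes, where Dlx5 is not.

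Neural cells holding Dlx1, Dlx2, Dlx5 or Dlx6 (158 cells) were then compared with the 1473 without, leaving the Dlx genes out of the calls. Here 3.34% of 12996 other genes were called, 152 higher (1.17%) and 282 lower (2.17%). The GABA genes rose together, with all 3 higher: Gad2 and Gad1, which make GABA, by 2.12 (SE 0.18) and 1.40 (SE 0.19) log2 units, and its vesicle transporter Slc32a1 by 1.61. Gad2 stood at 5.68, 5.93, 1.39 and 3.72 UMIs per 10000 against 1.30, 0.855, 0.653 and 0.842, with no overlap and F1_1 again the lowest (edgeR adjusted p = 9.0e-06).

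Of 11 forebrain factors that act with or after Dlx, 6 were higher, 1 was lower and 4 did not pass. Lhx6, which guides cortical interneurons from the medial ganglionic eminence, had 95 UMIs in the Dlx class and 4 elsewhere (log2 fold 7.48, SE 0.65, edgeR adjusted p = 1.2e-05). The others were Lhx8 (5.90), of cholinergic and GABAergic ventral neurons, Sp9 (3.74), Sp8 (1.43), Sox6 (1.20) and Isl1 (1.08), and Ebf1 was lower (-1.46). Of 7 patterning factors 5 were higher, led by Nkx2-1 (3.99) of the medial ganglionic eminence and hypothalamus and Six3 (2.60), and Otx2 (-0.79, adjusted p = 0.111) and Gsx1 (0.83, 0.303) did not pass.

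GABAergic factors of other regions went the other way. All 8 (Gata2, Gata3, Tal1, Tal2, Lhx1, Lhx5, Pax2 and Ptf1a) were lower in the Dlx-positive cells, from -1.74 for Lhx1 to -3.79 for Ptf1a, of which 1 UMI was seen. Of 8 glutamatergic genes 4 were lower, among them the transporter Slc17a6 at 0.161, 0.124, 0.174 and 0.320 against 1.01, 1.04, 0.662 and 0.709 (-2.15, SE 0.25, edgeR adjusted p = 0.00018). Emx1 (-0.58, 0.709) and Neurod1 (-0.78, 0.289) did not pass. The median over all genes tested was near 0, and the medians over the lists were 1.61 for GABA genes, 1.08 for the factors with or after Dlx, -2.62 for GABAergic factors of other regions and -1.81 for glutamatergic genes.

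**Figure D4:**
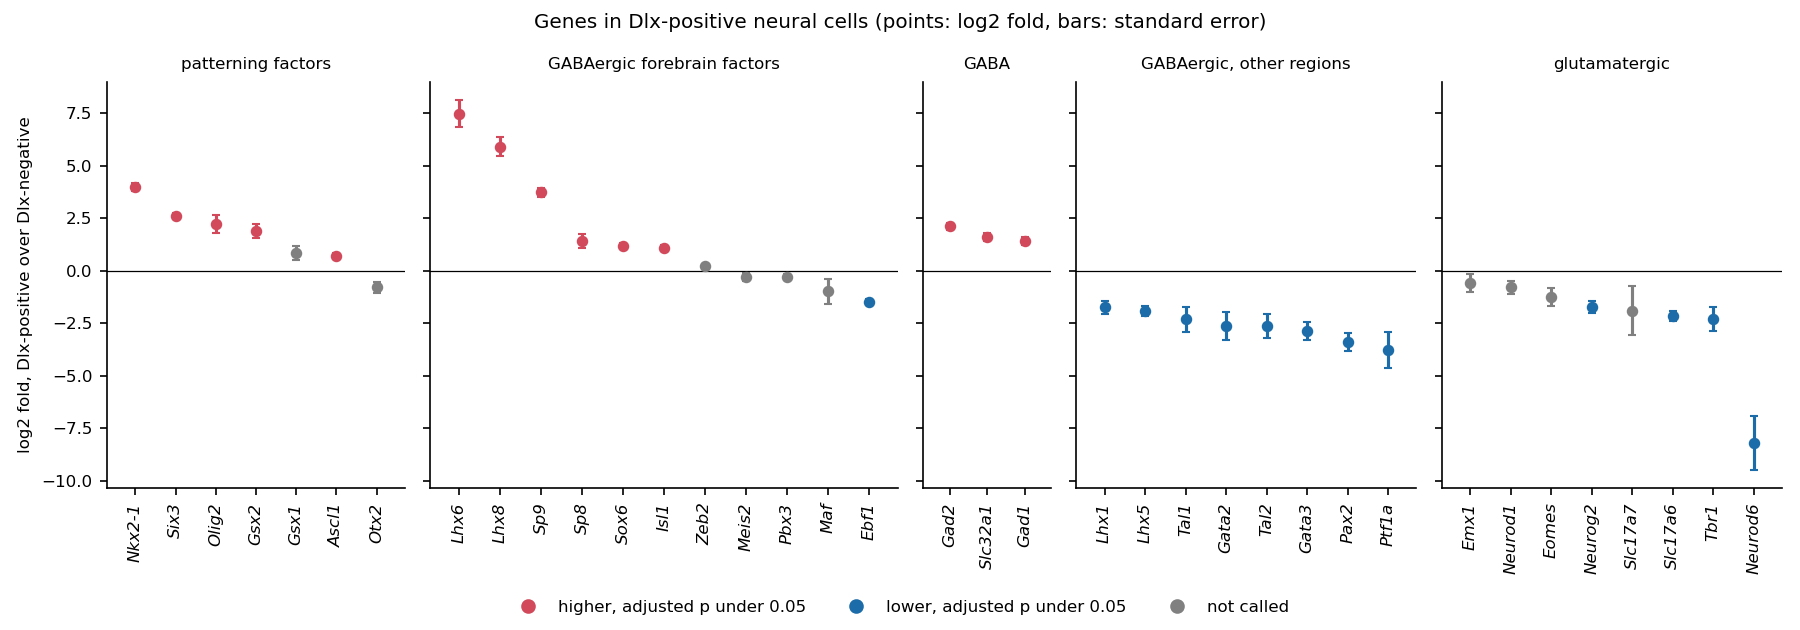
Log2 fold between Dlx-positive and Dlx-negative neural cells for 5 gene lists, with standard errors as bars and colour for the call. All 3 GABA genes lie above 0 and all 8 GABAergic factors of other regions below it. Neurod6 had 0 UMIs in the Dlx-positive class, so its fold depends on the prior count.

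By the rule of largest fold among genes higher in all suspensions, the leading genes of Dlx-positive neural cells included Lhx6, Lhx8, D930020B18Rik (5.61), Sowaha (4.2), Nkx2-1, Sp9, Pitx1 (3.68), Arhgdig (3.67) and Efcab6 (3.65). Within the class, the 132 cells with Dlx1 or Dlx2 had Gad2 in 61.4% and Sp9 in 56.1%. The 26 with Dlx5 or Dlx6 alone had them in 38.5% and 11.54%, and the 1473 with none in 18.2% and 7.2%. Epithelial markers moved with the class, 3 of 3 tested being higher, and Epcam stood at 0.322, 0.206, 0.209 and 0.302 against 0.0263, 0.0298, 0.0490 and 0.0337 (2.92, SE 0.37, edgeR adjusted p = 0.00035). They lay mostly in the smaller group, with Epcam in 26.9% of the cells with Dlx5 or Dlx6 alone, 2.27% of those with Dlx1 or Dlx2 and 3.39% of those with none. Their part in the other folds was not tested.

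In mesenchyme 225 cells with any Dlx gene were compared with 1241 without, and 2.8% of 13157 other genes were called, 102 higher (0.775%) and 266 lower. Barx1, a homeobox gene of the jaw and its teeth, stood at 3.18, 2.65, 1.29 and 2.80 UMIs per 10000 against 0.232, 0.181, 0.301 and 0.532 (log2 fold 3.04, SE 0.24, edgeR adjusted p = 3.2e-05). F1_1 was the lowest of the Dlx-positive values and still lay above all others. Of 17 tested arch genes 5 were higher, with Pou3f3 (2.35), Msx1 (1.64), Msx2 (1.48) and Gsc (0.78) beside Barx1, and Foxf2 (-1.74) and Tfap2b (-1.45) were lower. The median of the list was 0.029, so the arch genes did not move as 1 group. Of 14 tested limb genes Lhx9 (1.61) and Prrx1 (0.78) were higher.

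By fold the leading genes in mesenchyme were, in order, Nr5a2 (3.80), Lhx6 (3.47, SE 0.43), Barx1 and Lhx8 (2.90, SE 0.23), of which Lhx6 and Lhx8 also mark the first arch. The other leading genes were Pou3f3, Slc35f3 (2.67), Onecut2 (2.48), Dync1i1 (2.14), Atp6v1g3 (1.95) and Spock1 (1.83). Dync1i1 is a neighbour of Dlx5 and Dlx6 known for holding limb enhancers of theirs. Tbx1, a factor of pharyngeal mesoderm and endoderm, was lower (-4.15, SE 0.41, edgeR adjusted p = 0.00021), with 4 UMIs in the Dlx-positive cells. Dlx-positive cells were somewhat deeper, at 16413 gene UMIs per cell against 14873, and a separate fit with each cell thinned to 5000 UMIs made 241 calls among 11738 genes, beside 368 among 13157 unthinned. Of the 3 tested epithelial markers Epcam was lower (-1.66), and its part was not tested.

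Arch and limb genes were then read in mesenchymal cells that held Dlx1 or Dlx2 and in those with Dlx5 or Dlx6 alone. Barx1 was found in 67.7%, 60.9%, 41.7% and 59.4% of the cells with Dlx1 or Dlx2 (110 cells in all), and in 15.4%, 11.8%, 16.7% and 20% of the 111 cells with Dlx5 or Dlx6 alone. Tbx5, the forelimb factor, was found in 0%, 0%, 4.17% and 3.12% of the former and in 38.5%, 41.2%, 22.2% and 25% of the latter. In neither gene did the 2 groups overlap. Msx2, a homeobox gene of the distal arch and limb, followed Tbx5, at 6.45% to 17.4% against 30.8% to 50%, and Pou3f3 was found in 35.5% against 12.6% of all cells. Hoxa13, of the hand plate, was in 0 of the 110 cells with Dlx1 or Dlx2 and in 18.9% of those with Dlx5 or Dlx6 alone, though in 0 of the 18 such cells of F1_1. Median depth was alike, at 15565.5 and 14454 UMIs per cell. No test was made between these groups, which Dlx UMIs define.

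**Figure D5:**
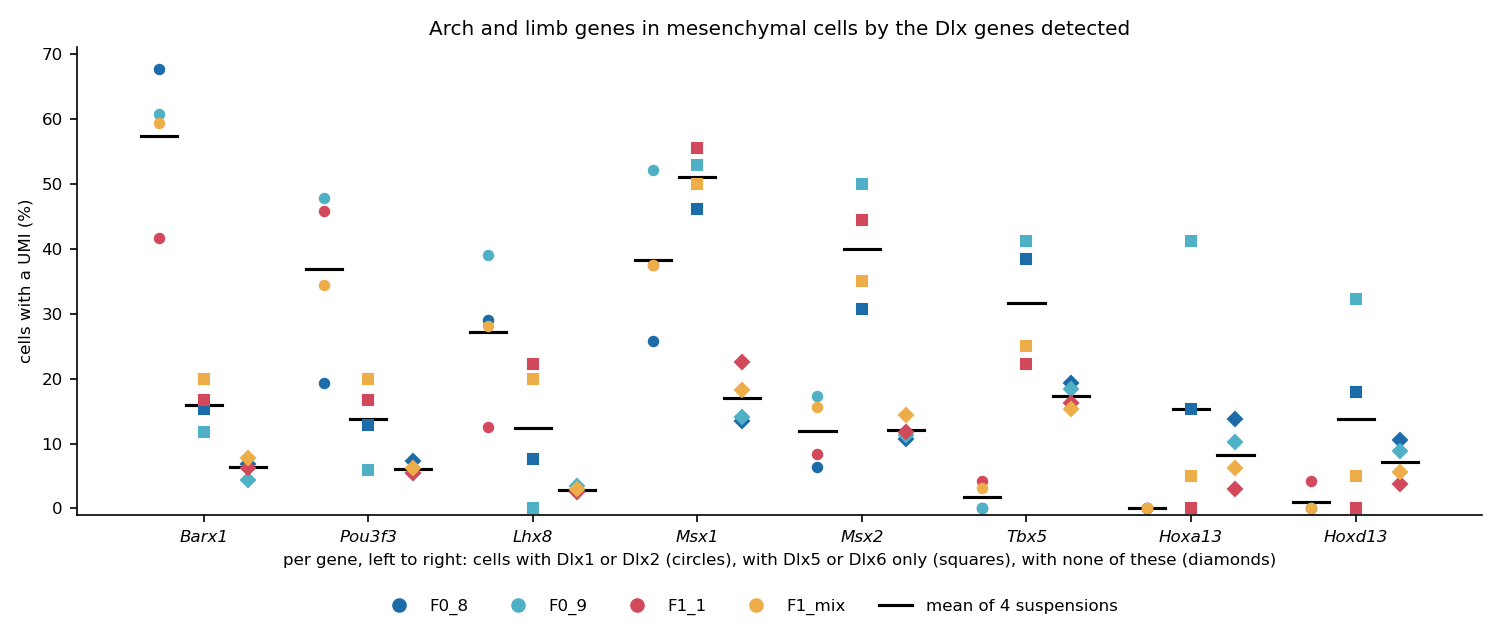
Share of mesenchymal cells with a UMI of 8 arch or limb genes (%), for cells with Dlx1 or Dlx2 (circles), with Dlx5 or Dlx6 alone (squares) and with none of these (diamonds). Points are suspensions and black bars their means. Barx1 is highest with Dlx1 or Dlx2 and Tbx5, Hoxa13 and Msx2 with Dlx5 or Dlx6 alone.

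The Myoblast/Cardiomyocyte type, which held 370 Dlx5 and 189 Dlx2 UMIs, was examined the same way after seeing the data. Its 158 Dlx-positive cells differed from 486 others in 2.02% of 12064 genes, 0.738% higher and 1.28% lower. The 244 calls became 99 without F1_mix, 126 with no suspension block and 118 after thinning. Barx1 (2.60), Msx1 (1.74), Lhx6 (3.70) and Lhx8 (3.20) were higher, as in mesenchyme. Of the 4 muscle markers Myod1, which fixes the muscle fate, was lower (-2.92, SE 0.52, edgeR adjusted p = 0.0088). The other 3 did not pass, and the median over the 4 was -1.68. Of the 3 neural crest markers 2 were higher, Foxd3 by 3.73 (SE 0.61) and Sox10 by 2.67 (SE 0.50), and Erbb3 did not pass (1.01, 0.052). Sox10 was found in 23.3% of the 86 cells with Dlx1 or Dlx2, in 1.47% of the 68 with Dlx5 or Dlx6 alone and in 2.86% of the 490 with none. The part of such cells in the Dlx level of this type was not tested.

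The embryos themselves were compared as founders against F1, the contrast the suspensions allow. Over 8 cell types in which a member could be tested, 29 tests of a Dlx gene gave 0 calls by edgeR and 7 with an unadjusted p under 0.05. Among all genes of these types that unadjusted limit was met least often in Epithelial Cell, by 559 of 8480. It was met most often in Neuroectoderm/Glia, by 1345 of 9964. The share of all genes called was 0% in Epithelial Cell and Myoblast/Cardiomyocyte, 0.013% in Ependymal Cell, 0.642% in Neuronal Progenitor, 0.809% in CNS Neuron, 1.03% in Mesodermal Progenitor, 1.11% in Neuroectoderm/Glia and 1.61% in Gut Mesenchyme/Amniotic Mesoderm. In the types fitted in which no member passed the filter of these fits (20 or more UMIs in all and 10 or more in at least 2 suspensions) it was 0.167% in Hepatocyte, 1.13% in Chondrocyte, 1.19% in Endodermal Progenitor, 1.48% in Midgut and 1.84% in Foregut. These shares moved with single suspensions, falling to 0.0101% in Neuroectoderm/Glia without F1_1, and to 0.196% in Gut Mesenchyme/Amniotic Mesoderm and 0.185% in Mesodermal Progenitor without F0_8, and reaching 2.79% and 2.8% in the latter 2 without F1_mix. The lowest adjusted p was that of Dlx5 in Myoblast/Cardiomyocyte, at 0.100 and 0.156 in founders and 0.396 and 0.356 in F1 (log2 fold -1.54, SE 0.22, adjusted p = 0.119). DESeq2 called that test (adjusted p = 0.028, with 0.308% of all genes called), and it was also called without F0_9 (0.0084, with 2.5% of all genes called), where F0_8 stands alone for the founders and is assumed to vary like the other suspensions. Without F1_mix, where F1_1 stands alone for the F1 under the same assumption, Dlx1 in CNS Neuron was called (3.01, 0.0012), as were 1.37% of all genes. Across the 3 comparisons by Hox, limb and ridge genes, edgeR tested 15 times whether a Dlx difference itself differed between founders and F1. These tests gave 0 calls, 2 unadjusted p under 0.05 and a lowest adjusted p of 0.381. Among all genes 742 of 13162, 838 of 12864 and 421 of 10060 had an unadjusted p under 0.05 in the 3 fits.

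Over the 12 deep types and 4 suspensions (48 points, which share types and libraries), the gene most like Dlx5 in log2 level was Dlx6 (Pearson r = 0.873), and the gene most like Dlx6 was Dlx5. For Dlx1 it was Dlx2 (0.868), followed by E130114P18Rik (0.830), Elovl2 (0.806) and Msi1 (0.803). For Dlx2 it was Wwc1 (0.872), ahead of Dlx1, Chrna7 (0.857), Tafa5 (0.856) and Fzd3 (0.856). After Dlx6, Dlx5 was most like Bcl11b (0.841), Irx5 (0.827), Cnksr2 (0.808) and Irx3 (0.804), and after Dlx5, Dlx6 was most like Zfp85 (0.743), Cnksr2 (0.742), Bcl11b (0.734) and Sertad4 (0.728). Between the pairs the values were lower, at 0.573 for Dlx1 with Dlx5 and 0.558 for Dlx2 with Dlx6. Dlx3 and Dlx4 had too few UMIs to be included.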

How the data were processed

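Embryonic cells at E11.5 were profiled by droplet-based 3′ single-cell RNA-seq with CellPlex multiplexing. The deposited values are raw UMI counts per gene and cell, which the authors made with Cell Ranger (version 7.2.0 in the matrix header) on mm10 with an added EGFP sequence, together with a table of the authors' cell types made in Seurat. Its columns of cell type and suspension were used, and 20 others were not. The authors removed doublets with DoubletFinder and low-quality cells before typing, and that was not repeated. Their correction for ambient RNA is not in the raw counts. Of 1387 to 1679 deposited barcodes per suspension, the 328 without a type in all were left out, and the sources used here do not state strand use in counting.

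Levels are UMIs per 10000 gene UMIs per type and suspension, with exact 95% Poisson or Clopper-Pearson intervals. For classes, counts were summed per suspension (10 or more cells per class, genes with a total of 20 or more, and for founders against F1 also 10 or more in at least 2 suspensions) and tested with edgeR 4.0.16 in R 4.3.3 (quasi-likelihood, TMM, two-sided, suspension as block, Benjamini-Hochberg over all genes, threshold 0.05). Suspension was the block because both classes came from the same embryos. On simulated counts 45% to 71% of genes changed by 1 log2 unit and 86% to 99% of those changed by 2 were recovered. Of the calls 1.81% to 7.09% were false. The changed genes had 100 or more UMIs in all and a fixed dispersion, with no differences between suspensions. Recovery of Dlx genes with fewer UMIs was not measured. DESeq2 1.42.0, no filter, no block, single types, thinning to 5000 UMIs and leaving out each suspension were alternatives. Python 3.11.15 with numpy 2.4.6, pandas 2.3.3, scipy 1.17.1 and matplotlib 3.10.9 did the rest.

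The members and gene lists were chosen with earlier results of these data known. Genes named are the 6 members, the listed genes, the 5 most alike over 48 points (log2 of level + 0.01, 200 or more UMIs), and the 10 of largest fold among called genes higher in 4 of 4 suspensions. Some genes that these rules or lists name, and a planned division of neural cells, are not reported here, and list counts leave those genes out.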

Additional observations from a re-analysis of the deposited data

Results flagged for a closer look

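Among the 55 groups of 4 suspensions with 20 or more UMIs, 2 had a suspension far from the other 3 by Dixon's criterion, where chance gives about 1 in 20. Dlx3 in Mesodermal Progenitor was low in F0_8, at 0.00436 UMIs per 10000 gene UMIs, against 0.0334 in F0_9, 0.0379 in F1_1 and 0.0385 in F1_mix. Dlx6 in Mesodermal Progenitor was high in F0_9, at 0.0946, against 0.0655, 0.0682 and 0.0665.

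Dlx signal was also present in barcodes that the comparisons do not use. The 328 deposited barcodes without a cell type held 110 Dlx UMIs in 14 barcodes, of which 42 were of Dlx1, 31 of Dlx2, 33 of Dlx5 and 4 of Dlx6.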

How the results depend on the processing

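Counts of Dlx genes called moved. By Hox 3 were called, but 1 with no suspension block (no replicate block), 0 in Chondrocyte or Mesodermal Progenitor alone, and 1 to 3 when a suspension was left out. By limb genes 3 became 0 after thinning and 0 in Gut Mesenchyme/Amniotic Mesoderm alone. By ridge genes 1 became 0 with DESeq2 or after thinning (neither gave Dlx2 an adjusted p), with no block or with any suspension left out (0 to 0), 3 with no filter and 2 with 2 or more UMIs for the positive class. For founders 0 became 1 with DESeq2, 6 with no filter and 0 to 1 with a suspension left out. In Dlx-positive neural cells 434 calls became 248 with no block, 738 with 2 or more UMIs, 278 in Neuroectoderm/Glia, 208 in Neuronal Progenitor, and 240 to 488 with a suspension left out (the lowest without F0_9). In Dlx-positive mesenchyme 368 became 209 with DESeq2, 559 with no filter, 138 with no block, 241 after thinning, 556 with 2 or more UMIs, 86 in Gut Mesenchyme/Amniotic Mesoderm, 223 in Mesodermal Progenitor, 244 in Myoblast/Cardiomyocyte (added after seeing the data), and 151 to 417 with a suspension left out (219 without F0_9, 151 without F1_1, 238 without F1_mix). Thinning moved Dlx6 in Epithelial Cell to 0.0947 and the mesenchymal co-detection ratios to 11.3 for Dlx1 with Dlx2, 10.3 for Dlx5 with Dlx6 and 5.29 for Dlx2 with Dlx5. Signs turned for Dlx5 by Hox in Chondrocyte (-1.25), Dlx3 by Hox without F1_mix (-0.83, and -0.83 to 1.17 over the suspensions left out) and in Myoblast/Cardiomyocyte (-0.014), Dlx5 by limb genes without F1_mix (0.033, and -0.38 to 0.033 over those left out), thinned (0.012) and in Gut Mesenchyme/Amniotic Mesoderm (0.62), and Dlx3 by ridge genes without F1_1 (-0.071, and -0.071 to 0.33 over those left out). None of these 7 was called. Other causes of the moves were not tested. Depth limits Dlx4 everywhere and Dlx3 outside epithelium.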

Other observations

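Gnrh1, the reproductive hormone of neurons that arise in the nasal placode, was looked at after the values were seen. Among neural cells it gave 146 UMIs in 3 of the 26 cells with Dlx5 or Dlx6 alone, 0 in the 132 with Dlx1 or Dlx2, and 15 UMIs in 15 of the 1473 with none. Krt8 was found in 15.4% and Krt18 in 23.1% of the same 26 cells, against 0.679% and 0.950% of those with none.

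In Dlx-positive Myoblast/Cardiomyocyte cells the genes of largest fold included Cdh19 (4.13), Foxd3 (3.73), Lhx6 (3.70), Lhx8 (3.20), Ednrb (2.96), Insc (2.89), Plekha4 (2.80) and Cdh6 (2.73), all log2 folds. Several of them (Cdh19, Foxd3 and Ednrb) are known from neural crest and Schwann cell precursors.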
